A study of Neurospora crassa with 6 samples.

Results

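In germinating conidiospores of *Neurospora crassa*, 116 of 9730 measured genes had transcripts that were low in wt heat shock, near the control level in wt under heat shock with 2-deoxyglucose, and low in os2 under that same combined stress. The set was selected on measured values, as log2 ratios with 1 added to each FPKM, a transcript level corrected for transcript length and library size. A member had at least 20 FPKM in wt at 30°C, a wt HS/30 ratio of at most -2, a wt DS/30 ratio above -0.5 and an os2 DS/30 ratio of at most -1.5. Of the 3741 genes with at least 20 FPKM in wt at 30°C, 701 met the limit in wt HS and are called low in wt HS, 264 of these also met that of wt DS, and 116 met all conditions, 3.1% of the 3741. The stresses were applied to parallel cultures and not one after the other, so transcripts near the 30°C level in wt DS are called held here.

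os2 is the point mutant UCLA 80A in an SL4 background, whose OS-2 protein is truncated and not functional, and wt is OR74A, so the mutation and the strain background cannot be told apart. Conidia of both strains were germinated for 5 hr at 30°C in Vogel's medium with 0.05% glucose. Dual stress (DS) was 2 hr at 45°C with the glucose analog 2-deoxyglucose, heat shock (HS) was 2 hr at 45°C, and the 30°C controls were cultured for 1 hr more. Each strain and condition had 1 library of polyadenylated RNA, 6 in all. A difference between 2 libraries of a strain therefore has no replicate check and was not tested, and the extra hour of culture cannot be told apart from the stress.

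Heat shock is known to redirect transcription towards chaperones and away from growth, including ribosomal proteins and biosynthetic enzymes. 2-Deoxyglucose is phosphorylated like glucose but is not used further in glycolysis, so that it limits the use of carbohydrate. OS-2 is the MAP kinase of the osmotic stress pathway, the counterpart of yeast Hog1. Because RNA came from whole cultures, fewer cells making a transcript and less RNA per cell cannot be told apart.

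The os-2 gene itself (NCU07024) had 37.5 FPKM in DS, 37.01 in HS and 34.3 at 30°C in os2, against 67.1, 65.1 and 113 in wt, and a point mutation does not have to remove the transcript. The 9 hsp genes with at least 20 FPKM in wt at 30°C, which are known to respond to heat, had median log2 ratios to 30°C of 2.18 in DS and 1.68 in HS for os2, and of 2.81 in DS and 1.22 in HS for wt. They did not all rise, since 1 of the 9 was low in wt HS, and none was a member. The number of fragments behind a value was estimated from the steps between low FPKM values. By that estimate 1 fragment was worth 0.953, 0.844 and 0.894 times as much FPKM in os2 DS, HS and 30°C, and 1.21 and 0.659 times as much in wt DS and HS, as in wt 30°C. No member was listed at 0 in any library. The thinnest value, that of NCU05948 in wt HS at 0.323 FPKM, rested on about 8.09 fragments, and 13 members had fewer than 50 in at least 1 library.

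The scale of the columns bears on every value. Scaling the 6 columns to equal FPKM totals moved the log2 ratios to 30°C by 0.59 in DS and 0.77 in HS for os2, and by -0.32 in DS and 0.41 in HS for wt, and left 18 of the 116 genes inside the rule. Of the members, 76 then missed the limit of os2 DS/30 and 47 that of wt DS/30, 27 of them both. These 18 were cyh-2, acw-10, NCU07974 and 15 genes without a name, among them NCU04496, NCU05629, NCU06294 and NCU16364, and their os2 DS/30 ratios on the deposited scale lay between -3.51 and -2.10. Scaling by median ratios gave 117 genes, 115 of them shared with the 116, and scaling to the same upper quartile gave 107, with 102 shared. The median-ratio scaling moved the log2 ratios to 30°C by only -0.0096 in DS and -0.012 in HS for os2. In wt it moved them by -0.015 in DS and -0.007 in HS. It thus left the columns nearly as deposited, and its close match carries little information. Values are on the deposited scale unless another scaling is named.

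Summed over members, the set made up 4.32% of all FPKM in os2 DS and 4.32% in os2 HS, against 12.2% in os2 at 30°C. In wt its share was 8.47% in DS and 1.21% in HS, against 11.7% at 30°C. The median member had 41.8, 44.5 and 156 FPKM in os2 DS, HS and 30°C, and 162, 15.1 and 163 FPKM in wt DS, HS and 30°C. The order of the libraries thus differed between strains, with wt DS beside the 30°C libraries and os2 DS beside os2 HS. All of these values except that of os2 HS were used by the rule and describe the selection.

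**Figure D1:**
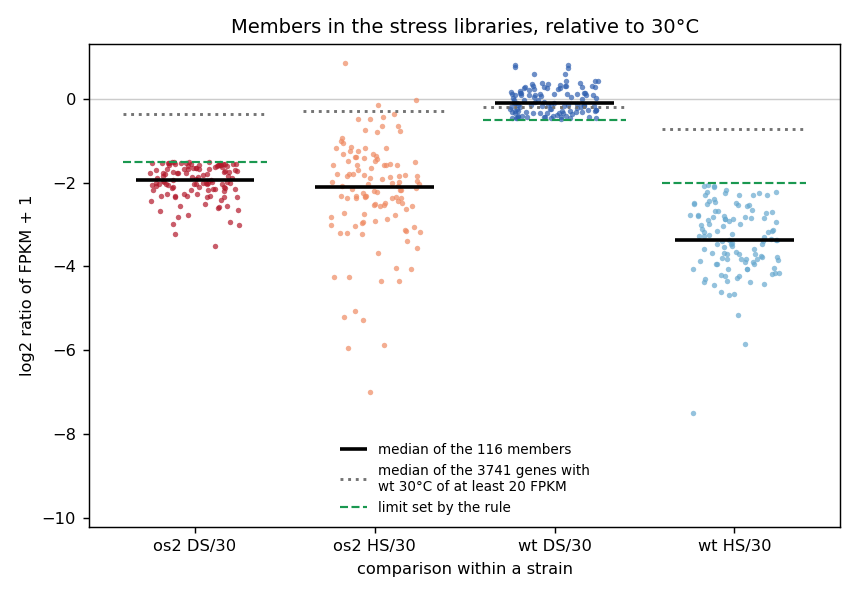
Log2 ratio of FPKM + 1 to 30°C for each of the 116 members (points) in the DS and HS libraries of os2 and wt, with the median of members (black line), the median of 3741 genes (dotted line) and the limits of the rule (dashed line). Members of os2 DS/30, wt DS/30 and wt HS/30 end at the limits because the rule put them there, while os2 HS/30, which has no limit, spreads from -6.99 to 0.86 around a median of -2.11.

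Members were concentrated among transcripts of high level. At least 1000 FPKM was measured in wt at 30°C for 25 members, which is 20.5% of the 122 genes at that level, whereas 44 members lay between 100 and 1000 FPKM (5.06% of 869 genes) and 47 below 100 FPKM (1.71% of 2750). Genes of high level were also more often low in wt HS, with 84.4% of the 122 within the limit against 12.6% of the 2750. Among the genes low in wt HS alone, members made up 24.3% in the highest band, 17.5% in the middle band and 13.6% in the lowest.

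The most abundant member was aac (NCU09477, chromosome II of assembly NC12, 4405532 to 4407556), the ADP/ATP carrier of the inner mitochondrial membrane, which exchanges ATP made in mitochondria for cytosolic ADP. It had 2818 FPKM in DS and 2241 in HS, against 8002 at 30°C, in os2, and 9483 in DS and 847 in HS, against 8099 at 30°C, in wt. It was also the member nearest to the os2 limit, with an os2 DS/30 log2 ratio of -1.51. The next most abundant members have no name in the sources used. NCU03738 had 1327, 1044 and 6455 FPKM in os2 DS, HS and 30°C, and 4653, 521 and 5954 FPKM in wt DS, HS and 30°C. NCU05032 had 1012, 820 and 6004 FPKM in os2 and 4245, 393 and 5831 FPKM in wt, in that order of conditions. For NCU02744 the values were 648, 537 and 4080 FPKM in os2 and 2587, 171 and 3534 FPKM in wt. In all 4 genes both os2 stress libraries lay close together and well below wt DS, and wt HS was the lowest library.

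All 7 genes with a crp symbol, which marks cytosolic ribosomal proteins, were low in wt HS, and 1 of them, crp-4 (NCU04331), was held in wt DS and was a member, against 264 held of all 701 genes low in wt HS. Ribosomal protein genes without that symbol are not on this list, so its counts do not describe the whole class. It had 537 FPKM in DS and 556 in HS, against 1820 at 30°C, in os2, and 1533 in DS and 171 in HS, against 1880 at 30°C, in wt. crp-3 (NCU07014) missed the set narrowly, with a wt DS/30 log2 ratio of -0.51, and over the 7 genes the median of that ratio was -0.78. cyh-2 (NCU03806), a cytosolic ribosomal protein gene in which mutations confer cycloheximide resistance, is not on that list and had 753, 658 and 3417 FPKM in os2 DS, HS and 30°C, and 3539, 254 and 3265 FPKM in wt DS, HS and 30°C. Its wt DS/30 log2 ratio of 0.12 was well inside the limit, and it stayed a member after scaling to equal totals. NCU09094, which the study's tables name Ipi-1 of pre-rRNA processing, differed from both in os2 HS, where it had 32.6 FPKM, close to its 33.5 at 30°C and above its 10.3 in DS, and it had 27.3, 2.56 and 27.8 FPKM in wt DS, HS and 30°C.

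Genes of amino acid synthesis gave 5 members, of 59 measured at 20 FPKM or more, 24 of which were low in wt HS and 11 of those held in wt DS. For this and the following lists, the counts over all 3741 genes were 701 low in wt HS, 264 of these held in wt DS and 116 members (3.1%). No list was tested against them. A separate list of nitrogen assimilation genes had 5 at that level, of which 2 were low in wt HS and none was held in wt DS or a member. The steepest was am (NCU01195, chromosome V, 3200862 to 3203095), the NADP-specific glutamate dehydrogenase that makes glutamate from ammonium. It had 558 FPKM in DS and 59.3 in HS, against 2322 at 30°C, in os2, and 2098 in DS and 40.8 in HS, against 2388 at 30°C, in wt. In os2 its DS level was thus well above HS but still far below 30°C, with log2 ratios of 3.21 for DS/HS and -2.05 for DS/30.

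gln-1 (NCU06724), glutamine synthetase, had 227, 291 and 659 FPKM in os2 DS, HS and 30°C, and 605, 146 and 716 FPKM in wt DS, HS and 30°C. For arg-4 (NCU10468), a gene of arginine synthesis, the values were 36.6, 81.8 and 106 FPKM in os2 and 68.2, 9.64 and 92.0 FPKM in wt. Both had more transcript in HS than in DS in os2, and more in DS than in HS in wt. cys-4 (NCU05238) had 30.9, 39.99 and 115 FPKM in os2 and 87.4, 18.1 and 109 FPKM in wt. cys-16 (NCU09230), which the study's tables print both as cystathionine γ-lyase and under methionine synthase, had 13.7, 13.3 and 50.01 FPKM in os2 and 34.3, 7.61 and 41.1 FPKM in wt. Both cys genes showed the common shape, with os2 DS and os2 HS alike. By contrast, 7 of 8 genes of purine and pyrimidine synthesis were low in wt HS and none of them was held in wt DS, so that none was a member.

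Of 21 genes of the TCA cycle and acetate use, 10 were low in wt HS, 9 of those were held in wt DS, and 2 were members. Of all 701 genes low in wt HS, 264 were held. cit-1 (NCU01692), citrate synthase, the entry step of the TCA cycle, had 154, 114 and 445 FPKM in os2 DS, HS and 30°C, and 459, 62.7 and 570 FPKM in wt DS, HS and 30°C. ace-8 (NCU06075), pyruvate kinase, the last step of glycolysis, had 338, 378 and 1125 FPKM in os2 and 748, 72.0 and 953 FPKM in wt. The other 7 held genes of this list had os2 DS/30 ratios above the limit. Complex I (29 genes), the vacuolar ATPase (14) and the proteasome (29) had at most 1 gene within the wt HS limit and no member.

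Cell wall genes formed a further group, with 3 members of 30 measured at 20 FPKM or more, 8 of which were low in wt HS, against 116 members and 701 low of all 3741. acw-10 (NCU03013), an anchored cell wall protein, had 98.7 FPKM in DS and 21.5 in HS, against 427 at 30°C, in os2, and 572 in DS and 14.1 in HS, against 537 at 30°C, in wt. eas (NCU08457), the hydrophobin of the conidial surface, had 140 FPKM in DS and 8.58 in HS, against 560 at 30°C, in os2, and 415 in DS and 30.7 in HS, against 308 at 30°C, in wt. Unlike most members, eas was lower in os2 HS than in wt HS, and its os2 DS/HS log2 ratio of 3.88 was the highest of the set. ncw-2 (NCU01752), a non-anchored cell wall protein, had 199, 170 and 681 FPKM in os2 DS, HS and 30°C, and 1259, 124 and 723 FPKM in wt DS, HS and 30°C. Its wt DS level exceeded that at 30°C, by 0.80 on the log2 scale. Endoglucanase B (NCU07974), so named in the study's protein table and not on the cell wall list, had 70.6, 32.2 and 346 FPKM in os2 and 344, 32.0 and 299 FPKM in wt.

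Among signaling genes, mak-1 (NCU09842), the MAP kinase of the cell wall integrity pathway, was the single member of 7 MAP kinase and osmosensing genes. It had 47.8 FPKM in DS and 48.3 in HS, against 139 at 30°C, in os2, and 182 in DS and 10.8 in HS, against 165 at 30°C, in wt. A calmodulin-like EF-hand protein (NCU06948) had 18.9, 9.73 and 57.3 FPKM in os2 DS, HS and 30°C, and 99.5, 9.61 and 58.4 FPKM in wt DS, HS and 30°C. In HS the strains were alike for the calmodulin-like gene and differed for mak-1, with os2/wt HS log2 ratios of 0.02 and 2.06.

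Of 3 sterol synthesis genes, 2 were low in wt HS and held in wt DS, and 1 of these was a member. This gene, erg-1 (NCU04156), the C-8 sterol isomerase of ergosterol synthesis, had 119, 68.5 and 356 FPKM in os2 DS, HS and 30°C, and 350, 19.7 and 317 FPKM in wt DS, HS and 30°C. inl (NCU06666), inositol 3-phosphate synthase, the first enzyme of inositol synthesis, had 119, 75.2 and 425 FPKM in os2 and 440, 25.1 and 527 FPKM in wt. Both were somewhat higher in os2 DS than in os2 HS, by 0.79 and 0.66 on the log2 scale. Neither of the 2 fatty acid synthesis genes was held in wt DS.

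Of named members outside these lists, pcn (NCU09239), the proliferating cell nuclear antigen that clamps DNA polymerase to its template, had 67.2, 80.5 and 218 FPKM in os2 DS, HS and 30°C, and 251, 11.04 and 168 FPKM in wt DS, HS and 30°C. ndk-1 (NCU04202), nucleoside diphosphate kinase, had 184, 383 and 665 FPKM in os2 and 491, 63.2 and 676 FPKM in wt. Both stood far above wt in os2 HS, with os2/wt HS log2 ratios of 2.76 and 2.58. S-(hydroxymethyl)glutathione dehydrogenase (NCU00028), which detoxifies formaldehyde bound to glutathione, had 18.6, 19.9 and 72.9 FPKM in os2 and 79.6, 16.6 and 94.7 FPKM in wt, and its strains were close in HS.

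Of the remaining named members, un-25 (NCU05554) had 141, 165 and 766 FPKM in os2 DS, HS and 30°C, and 638, 35.4 and 880 FPKM in wt DS, HS and 30°C. prm-1 (NCU07459) had 78.9, 53.0 and 255 FPKM in os2 and 254, 7.93 and 170 FPKM in wt, while prm-3 (NCU01669) had 8.70, 10.6 and 42.6 FPKM in os2 and 27.0, 2.47 and 37.1 FPKM in wt. All 3 were higher in os2 HS than in wt HS. The other 91 members had neither a symbol nor a name in the study's tables or text.

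**Figure D2:**
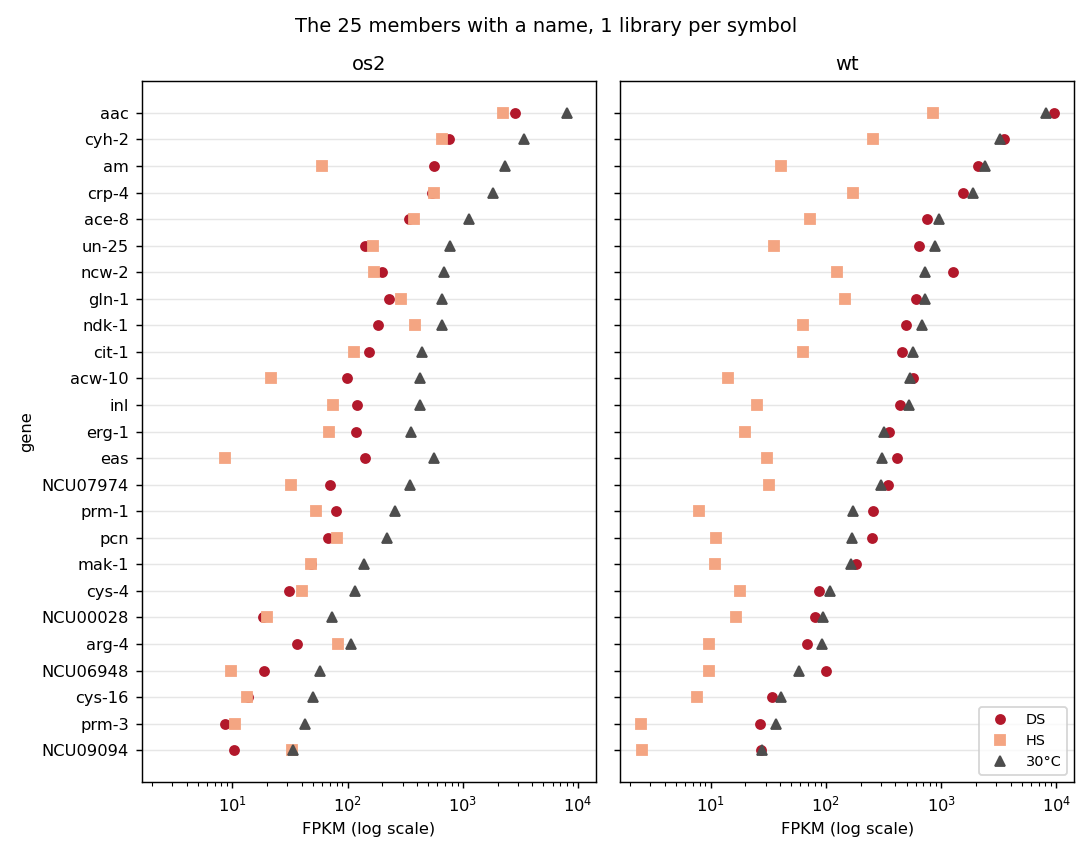
FPKM (log axis) of the 25 named members in DS (circles), HS (squares) and at 30°C (triangles), os2 on the left and wt on the right, 1 library per symbol, ordered by the wt 30°C level. In wt the circles sit beside the triangles and the squares far to the left, whereas in os2 the circles and squares mostly sit together, except for am, acw-10 and eas, whose squares are far lower, and arg-4, ndk-1 and NCU09094, whose squares are closer to the triangles.

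The heat shock library of os2 was the only one the rule did not use, although its ratio to 30°C shares the os2 30°C library with the rule. There, 103 of 116 members (88.8%) had an os2 HS/30 log2 ratio of at most -1, against 21.1% of all 3741 genes, and 63 (54.3%) had one of at most -2, against 7.67%. The median was -2.11 over members, with quartiles of -2.78 and -1.49, against -0.29 over all genes. With all columns brought to 1 total, the same 116 genes had a median of -1.38 against 0.46 over all genes, and 106 of them remained below 0. Members were thus mostly low in os2 HS as well as in wt HS, though less so in os2 for most of them. The rule set a limit on wt HS/30 and none on os2 HS/30, so the smaller fall in os2 describes the selection. Over all 701 genes low in wt HS the medians were -1.46 in os2 HS/30 and -2.84 in wt HS/30. Over the 116 genes, which share no library between these ratios, os2 HS/30 and wt HS/30 had a Pearson r of 0.43 and a Spearman rho of 0.28, given as a description because genes are not independent. The rule limited wt HS/30 to at most -2, so both coefficients cover a cut range of that ratio.

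High level alone went with a low os2 HS ratio. The 25 members at 1000 FPKM or more in wt at 30°C had a median os2 HS/30 of -2.37, against -2.26 for all 122 genes at that level. Below 100 FPKM the medians were -1.87 for 47 members and -0.17 for all 2750 genes, and between 100 and 1000 FPKM they were -1.97 for 44 members and -0.55 for 869 genes. Members thus differed from genes of like level in the lower bands and not in the highest. Those genes were not selected, and the share of them within the wt HS limit was 84.4% in the highest band, 29.0% in the middle and 12.6% in the lowest. The contrast between bands is therefore a description of the selection.

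The other genes low in wt HS were set beside members for the same ratio. Those held in wt DS whose os2 DS/30 was above the limit, 148 genes, had a median os2 HS/30 of -1.01, and 50.7% were at or below -1. Those not held in wt DS but within the os2 DS limit, 340 genes, had a median of -1.93, and 85.6% were at or below -1. The 97 genes that met neither limit had a median of -0.89, and 38.1% were at or below -1. Members therefore resembled the 340 genes, which share with them a low os2 DS value, and a low ratio in os2 HS was not particular to members.

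Members and the 340 genes, alike in os2 HS/30, lay further apart in how DS compared with HS in os2, a ratio whose os2 DS value the rule used. The os2 DS/HS log2 ratio had a median of 0.20 over members, against -0.40 over the 340 genes, -0.04 over the 148, -0.28 over the 97 and -0.02 over all 3741. It was at least 1 in 21 members (18.1%), against 6.17% of all genes and 3.82% of the 340, and at most -1 in 11 members (9.48%), against 5.99% of all genes. In all, 64 members were higher in os2 DS than in os2 HS and 52 were lower, against 1828 higher and 1913 lower of all 3741 genes. After scaling to equal totals, 59 members were higher and 57 lower, and the median was 0.02 over the 116 members and -0.20 over all 3741. Because the rule set limits on os2 DS and wt DS, these shares and medians are descriptions, and the os2 DS/30 medians of members and of the 340 genes, -1.94 and -2.31, already differed. The os2 DS/HS median of members turned to -0.15 when the wt DS limit was relaxed to -1 and to -0.026 when the os2 limit was. For comparison, the wt DS/HS median of members, which the rule fixes in large part, was 3.34.

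**Figure D3:**
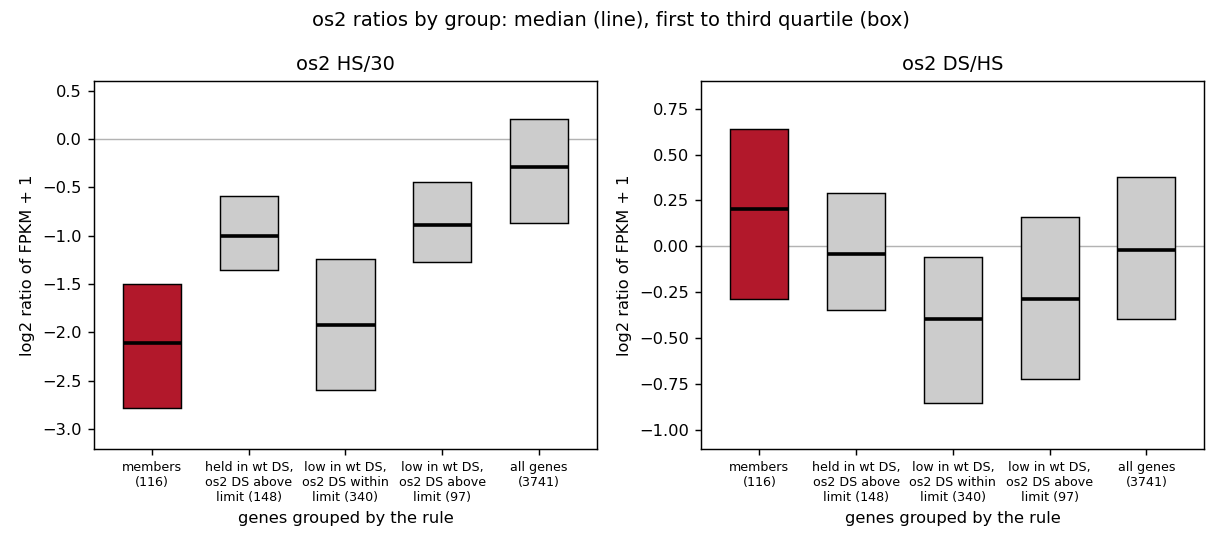
Median (line) and lower to upper quartile (box) of the log2 ratio of FPKM + 1 in os2 HS/30 (left) and os2 DS/HS (right) for members, for the 3 other groups of genes low in wt HS and for all 3741 genes. In os2 HS/30 the members (-2.11) sit with the 340 genes low in os2 DS and not held in wt DS (-1.93), while in os2 DS/HS the members (0.20) sit above these genes (-0.40).

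The 21 members at least 2-fold higher in os2 DS than in os2 HS necessarily had low os2 HS values, since os2 DS was itself limited by the rule. Their median was 35.1 FPKM in DS and 10.6 in HS, against 268 at 30°C, in os2, and 290 in DS and 15.8 in HS, against 294 at 30°C, in wt. Their os2 HS/30 log2 ratios, -2.74 or lower, follow from that choice. Their os2/wt HS median was -0.14, whereas it was 1.40 for the 84 members with os2 DS and HS within 2-fold of each other, a difference that shares the os2 HS library with the grouping.

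NCU05712 (chromosome III, 599368 to 600708) was the extreme case, with 27.8 FPKM in DS and 1.12 in HS, against 268 at 30°C, in os2, and 291 in DS and 0.873 in HS, against 337 at 30°C, in wt. NCU04496 (chromosome IV, 3174751 to 3176363) had 386, 29.7 and 1876 FPKM in os2 DS, HS and 30°C, and 1221, 62.4 and 1136 FPKM in wt DS, HS and 30°C. NCU09562 had 145, 10.6 and 428 FPKM in os2 and 290, 14.4 and 319 FPKM in wt. With am and eas, these were the 5 members with the lowest os2 HS/30, from -6.99 to -5.21 on the log2 scale, and their os2 DS/HS ratios, from 3.21 to 3.88, were the 5 highest of the set, a match between ratios that share the os2 HS library. In each of them os2 DS was still below os2 30°C, with os2 DS/30 ratios of -1.56 or lower.

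The 11 members at least 2-fold lower in os2 DS than in os2 HS formed the opposite end. Their median was 33.9 FPKM in DS and 80.3 in HS, against 103 at 30°C, in os2, and 69.4 in DS and 8.20 in HS, against 73.0 at 30°C, in wt. In os2 HS, 6 of the 11 lay within 0.5 of control on the log2 scale and NCU16402 lay above it. 10 of the 11 had os2 HS/30 above -1, their os2/wt HS median was 3.24, and in wt HS they had at most 63.2 FPKM, the value of ndk-1. Both ratios share the os2 HS library with the grouping, and the rule limited os2 DS and wt HS. The high values of the 11 in these ratios therefore describe that choice.

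NCU16402 (chromosome I, 5607037 to 5608244) was the only member above its control in os2 HS, with 18.7 FPKM in DS and 106 in HS, against 58.1 at 30°C, in os2, and 23.99 in DS and 5.91 in HS, against 31.7 at 30°C, in wt. NCU09131 had 9.58, 38.1 and 42.5 FPKM in os2 DS, HS and 30°C, and 23.4, 1.82 and 32.6 FPKM in wt DS, HS and 30°C. NCU02372 had 36.5, 82.9 and 113 FPKM in os2 and 92.6, 6.21 and 73.0 FPKM in wt. With NCU09094 and arg-4, these were the 5 members with the highest os2 HS/30, from -0.45 to 0.86. Under the scaling to the same total, 10 members lay above 0 in that ratio.

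**Figure D4:**
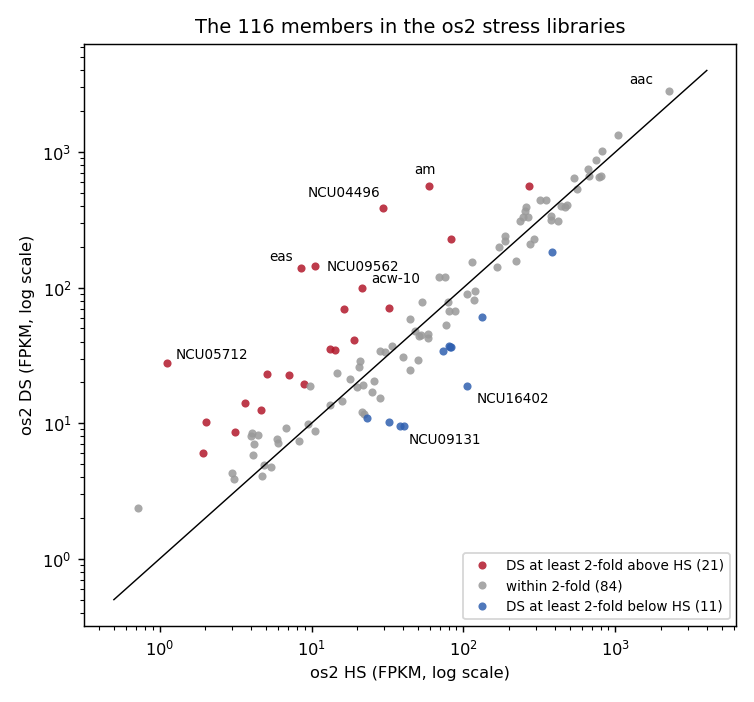
FPKM of each of the 116 members in os2 DS (vertical axis) and os2 HS (horizontal axis), both on log scales, with the line of equal values. The 21 red points, led by eas, NCU05712, NCU04496, NCU09562 and am, lie at least 2-fold above the line on the log2 ratio of FPKM + 1, the 11 blue points, among them NCU16402 and NCU09131, lie at least 2-fold below it, and 84 grey points lie within 2-fold.

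Between strains, members began from like levels. At 30°C the os2/wt log2 ratio had a median of 0.07 over members and -0.02 over all 3741 genes. It was at least 1 in 2 members (1.72%), against 0.214% of all genes, and at most -1 in 1 member (0.862%), against 1.52% of all genes. NCU03294, with 94.5 FPKM in os2 and 29.7 in wt, and NCU16555, with 90.4 FPKM in os2 and 32.9 in wt, were the higher ones, and NCU04543, with 15.5 FPKM in os2 and 61.5 in wt, was the lower one. These 3 were named after their values were seen. Both 30°C libraries were used by the rule, and a high os2 30°C value by itself lowers os2 DS/30. The shares at 30°C are therefore descriptions of the selection.

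In HS the os2/wt log2 ratio had a median of 1.32 over members, against 0.30 over all genes, and of 1.67 against 0.64 after scaling to equal totals. It was at least 1 in 68 members (58.6%), against 22% of all genes, and at most -1 in 7 members (6.03%), against 8.26%. The rule chose members for a low wt HS value, the denominator of this ratio, so these counts are descriptions of the selection. Among all 701 genes low in wt HS the median was 1.40 and 67.2% were at least 1, so the ratio was not particular to members among genes chosen in that way. Relative to its own 30°C control, os2 HS was above wt HS in 98 members, by at least 1 in 69, and at least 1 below in 5, which were eas, NCU04496, NCU03294, NCU05814 and NCU08169. These counts also describe the selection, since the rule limited wt HS/30 and not os2 HS/30. The medians of os2 HS/30 and wt HS/30 were -1.46 and -2.84 over the 701 genes, and -0.29 and -0.72 over all 3741. In DS the os2/wt ratio was at most -1 in 109 members (94%), against 21.4% of all genes, a count that the limits of the rule largely fix and from which nothing is read.

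Within the limits, members in wt DS lay on both sides of control. A wt DS/30 log2 ratio above 0 was found in 50 members (43.1%), against 41.2% of all genes, and 14 remained above 0 after scaling to equal totals. The rule kept only members above -0.5 in this ratio and set no such limit on all genes, so the 2 shares are not comparable. Of the 148 genes also held in wt DS, with os2 DS/30 above the limit, 92 were above 0. The 5 highest were NCU05513 and ncw-2, both at 0.80, NCU06948 at 0.76, NCU05628 at 0.72 and pcn at 0.57. NCU05513 had 12.5, 4.65 and 39.1 FPKM in os2 DS, HS and 30°C, and 71.0, 4.67 and 40.2 FPKM in wt DS, HS and 30°C. None of the 5 reached a 2-fold excess over control.

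The lowest os2 DS/30 log2 ratios were those of NCU05629 (-3.51), NCU05712 (-3.22), NCU10220 (-3.02), NCU16364 (-2.98) and NCU06294 (-2.95). NCU05629 had 22.6 FPKM in DS and 7.09 in HS, against 268 at 30°C, in os2, and 396 in DS and 15.8 in HS, against 327 at 30°C, in wt. NCU10220 had 9.60, 40.5 and 84.8 FPKM in os2 DS, HS and 30°C, and 46.8, 2.21 and 58.7 FPKM in wt DS, HS and 30°C. NCU06294 had 7.15, 6.06 and 61.8 FPKM in os2 and 44.2, 5.97 and 49.2 FPKM in wt. The 5 differed in os2 HS, which was above DS in NCU10220 and below it in the others.

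The lowest wt HS/30 log2 ratios were those of NCU05712 (-7.50), am (-5.84), acw-10 (-5.15), NCU06431 (-4.67) and NCU01221 (-4.66). NCU06431 had 407, 479 and 2796 FPKM in os2 DS, HS and 30°C, and 1934, 102 and 2631 FPKM in wt DS, HS and 30°C. NCU01221 had 390, 258 and 2399 FPKM in os2 and 1636, 84.6 and 2166 FPKM in wt. The first 3 were also far lower in os2 HS than in os2 DS, whereas NCU06431 was not.

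Values near the limits show how finely the set is drawn. Just inside the os2 limit lay aac (-1.51), arg-4 (-1.51) and NCU08951 (-1.52), and just outside lay NCU03321 (-1.497), vib-1 (NCU03725, -1.495) and fkr-4 (NCU03241, -1.49). For wt DS/30, NCU09244 (-0.49), un-25 (-0.46) and ndk-1 (-0.46) were inside, and NCU02707 (-0.51), crp-3 (-0.51) and NCU00646 (-0.51) were outside. For wt HS/30, NCU02901 (-2.05), NCU09498 (-2.07) and NCU00575 (-2.08) were inside, and NCU09659 (-1.99), NCU06214 (-1.99) and NCU02139 (-1.99) were outside. At the level limit, NCU03266 (21.6 FPKM), NCU05948 (22.4) and NCU09352 (23.9) were inside, and NCU06111 (18.6), gh28-1 (NCU02369, 17.5) and NCU06326 (17.3) were outside. Genes that failed 1 condition only numbered 340 for wt DS, 148 for os2 DS, 20 for wt HS and 14 for the level.

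The study listed genes with lowered transcripts by category, a list chosen on these same libraries and so not independent of the values. Of its 81 measured genes, 73 had at least 20 FPKM in wt at 30°C, 60 of these were low in wt HS, 25 of the 60 were held in wt DS and 11 were members. The members were spread over 9 categories, with 2 each in cell wall (acw-10 and eas) and signaling (mak-1 and NCU06948). None of the 7 genes listed under mitochondria was a member, although 5 of the 6 low in wt HS were held in wt DS, since their os2 DS/30 was above the limit. Of the 112 measured genes that the study listed with raised transcripts, 38 had at least 20 FPKM in wt at 30°C and none was a member.

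Members lay on all 7 chromosomes of assembly NC12, with 11 on chromosome IV (2.02% of its genes at 20 FPKM or more) and 28 on chromosome V (4.24%) at the extremes. 3 pairs were neighbours in gene order, NCU03293 and NCU03294 on chromosome I with 2238 bases between them, NCU01441 and NCU10220 on chromosome V with 190 bases, and NCU05629 and NCU05628 on chromosome VI with 629 bases. Neighbours did not always share a pattern. NCU01441 and NCU10220 were both at least 2-fold lower in os2 DS than in os2 HS, whereas NCU03294 was at least 2-fold higher there and NCU03293 was not, with os2 DS/HS log2 ratios of 1.69 and -0.26. The median gene length of members was 1981.5 bases, against 2281 bases for all 3741 genes.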

How the data were processed

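Polyadenylated RNA of wt and os2 was sequenced as 1 library per strain and condition. After quality control in FastQC, the authors used TopHat for alignment to the 74a_12 genome and a Broad Institute transcriptome, and deposited FPKM values from Cufflinks, 1 column per library; the submitters' processing notes also name CASAVA 1.8.2 and Cuffdiff. Other versions are not given in the sources used here. 1 row without an identifier was left out. Log2 ratios were computed after adding 1 to each FPKM, and 2-fold (a log2 ratio of 1) was the size counted. No p-value was computed. Fragments per gene were estimated from 56 low genes of at least 1.5 kb whose values were whole multiples of 1 fragment within 0.06, so they are approximate. Symbols and positions were taken from RefSeq (assembly NC12), where 9729 of 9730 identifiers were found. Named genes were members with a symbol or a study name, the 5 extremes of each ranking, and those nearest each limit. Members and lists were chosen with earlier results of these data known. Gene lists were made from gene symbols or from the study's categories, so the symbol lists leave out genes without a symbol and are incomplete. Promoter sequences were not analysed here. The calculations used Python 3.11.15, numpy 2.4.6 and pandas 2.3.3, and were tested on simulated data. The 9 alternatives were 3 scalings, 2 pseudocounts, 2 level minimums and 2 relaxed limits.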

Additional observations from a re-analysis of the deposited data

Results flagged for a closer look

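NCU16402 stood apart because its HS/30 ratio had opposite signs in the strains, with a log2 ratio of 0.86 in os2 and -2.24 in wt. Its levels were 106 FPKM in HS and 58.1 at 30°C in os2, and 5.91 FPKM in HS and 31.7 at 30°C in wt. The difference was not tested, since each value is 1 library.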

How the results depend on the processing

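The number of members (116) was 18 with columns scaled to an equal total, 228 with the wt DS limit at -1 and 200 with the os2 DS limit at -1. Members at or below -1 in os2 HS/30 (103) numbered 17 with the equal total and 204 with the wt DS limit at -1. Each median under an alternative is over the genes that met the rule there, which were 18 with the equal total. The median os2 HS/30 (-2.11) was -2.39 with the equal total and -1.52 with the os2 DS limit at -1. Over the same 116 genes the equal total gave -1.38. The median os2 DS/HS (0.20) was 0.38 with the equal total, against 0.02 over the same 116 genes. It turned to -0.15 and -0.026 with the wt DS and os2 DS limits at -1. The median os2/wt HS (1.32) was 0.74 with the equal total, against 1.67 over the same 116 genes. The median os2/wt 30 kept its side of 0 under all 9 alternatives. The relaxed limits admit more genes by construction, and the total scaling raises every os2 DS/30 ratio. For the other differences the cause was not tested. In all, 43 of the values under an alternative stayed near the reported one, 9 moved and 2 changed sign, and 18 genes met the rule under all 9 alternatives. The 43 include the values of the median-ratio scaling, which left the columns nearly as deposited. Values of few fragments, mostly in wt HS, limit the deepest ratios.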
